A study of Homo sapiens with 21 samples.

Results

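FOXA1, FOXA2, FOXA3, CEBPA, CEBPB, ONECUT1, PROX1 and GATA4 encode transcription factors that specify and maintain the hepatocyte lineage. They were taken by gene symbol, though with earlier results of these data known, and are 8 of the 28808 genes in the deposited tables. All 8 were among the 13405 genes tested, meaning genes that all 6 tables list and that reached 1 FPKM (fragments per kilobase of gene length, scaled to the size of the library) in at least 3 libraries. The cells were C3A, an established clone of the human hepatoma line HepG2 and thus a tumour model of hepatocytes rather than primary tissue, labelled wild type. RNA sequencing covered 6 unexposed libraries (replicates 1 to 6) and 3 libraries from each of 5 exposures of 48 h: the herbicide glyphosate at 5.6 µM, which is 0.95 µg/mL, AMPA, into which glyphosate breaks down, at 34 µM, which is 3.7 µg/mL, then 2,4-D, a herbicide that acts as an auxin, at 2.5 µM, which is 0.56 µg/mL, and 2,4-D together with either glyphosate or AMPA. These concentrations lie far below the inhibitory concentrations of the compounds, per the labels, and differ between compounds. The question addressed is how low concentrations of these herbicides, alone and combined, affect gene expression of hepatic cells. Whether the replicates come from separate cultures is not stated, so p-values measure only the spread between these libraries, which may be technical.

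The FOXA proteins are forkhead factors that bind nucleosomal DNA and open liver enhancers early in development, and they go on acting at hepatocyte genes in the adult liver. C/EBP alpha and C/EBP beta, encoded by CEBPA and CEBPB, are leucine zipper factors that bind the same kind of site. The first is associated with metabolic function and growth arrest of hepatocytes, the second with the acute-phase response and regeneration. GATA4 is a zinc finger factor that works beside FOXA proteins in the liver bud, PROX1 is a homeodomain factor needed for hepatoblast migration and a corepressor of nuclear receptors, and ONECUT1, also called HNF6, is a cut-homeodomain factor of hepatoblasts, hepatocytes and bile ducts.

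CEBPA, CEBPB and FOXA1 fell together in all 5 exposures, so the sequences before their RefSeq starts are shown, on GRCh38.p14, 5′ to 3′ on the strand of the gene. Of the 8 members 5 had an entry in that table, and windows were the 250 bases before the start. Only bases outside the exons that GENCODE v29 gives for the gene are printed, which leaves out the last 30 bases for CEBPA and the last 99 for FOXA1. The stretches are chr19:33302565-33302784 on the minus strand for CEBPA, chr20:50190333-50190582 on the plus strand for CEBPB and chr14:37595349-37595499 on the minus strand for FOXA1. The RefSeq start of FOXA1 lies inside the gene as the deposited tables give it (chr14:37589984-37596059), so this stretch is downstream of the first start annotated there. Capitals mark matches to the motifs searched.
CEBPA: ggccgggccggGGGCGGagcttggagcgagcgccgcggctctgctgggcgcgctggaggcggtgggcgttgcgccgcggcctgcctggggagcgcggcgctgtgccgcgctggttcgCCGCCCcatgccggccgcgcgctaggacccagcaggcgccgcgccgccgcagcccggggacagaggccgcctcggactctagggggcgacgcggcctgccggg
CEBPB: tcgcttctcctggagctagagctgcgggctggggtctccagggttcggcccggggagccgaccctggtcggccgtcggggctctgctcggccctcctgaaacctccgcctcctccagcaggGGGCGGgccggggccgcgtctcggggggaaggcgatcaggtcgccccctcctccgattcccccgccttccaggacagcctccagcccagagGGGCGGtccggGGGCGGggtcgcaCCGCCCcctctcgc
FOXA1: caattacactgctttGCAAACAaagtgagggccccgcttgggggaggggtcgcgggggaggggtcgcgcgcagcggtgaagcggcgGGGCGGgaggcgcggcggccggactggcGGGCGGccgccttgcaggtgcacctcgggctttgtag
The motifs, searched on both strands of all 35116 windows of the table, were TATAAA (in 10.7% of windows), CCAAT (32.0%), GGGCGG (42.6%), CACGTG (6.34%), TGACGTCA (1.65%), TTGCNNAA (9.05%), TGTTTAC (2.98%), TGTTTGC (3.23%), AGATAA (9.17%) and ATCAAT (5.58%). All 3 windows hold GGGCGG, with 2 matches for CEBPA, 4 for CEBPB and 2 for FOXA1, and so do the windows of FOXA3, which rose, and ONECUT1, which was not called, with 3 matches each. FOXA1 has 1 match to TGTTTGC, on the opposite strand at 235 to 229 bases before the start, and CEBPA has TATAAA at 30 to 25 bases before the start, in the part not printed, as has FOXA3. GC content was 81.2% for the CEBPA window, 75.6% for CEBPB and 67.2% for FOXA1, and 75.2% for FOXA3 and 76.8% for ONECUT1, against a median of 58% over all windows. These are letter matches only and carry no measurement of binding. A second RefSeq start of CEBPB, whose window is not shown, has TATAAA and CCAAT.

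Depth, from reads recovered out of the FPKM, was 15.2 to 24.35 M per library (17.41 to 19.77 M for the unexposed ones). Per library, reads of a single member ran from 48 to 129 for ONECUT1, from 191 to 494 for GATA4 and from 2111 to 4708 for CEBPB. Hepatocyte and hepatoma markers (ALB, AFP, TTR, APOA1, SERPINA1, GPC3) were all present, with a summed level of 5887 to 6338 FPKM in unexposed replicates 1 to 3, 8417 to 9605 in unexposed replicates 4 to 6 and 9405 to 10935 in exposed cells. The biliary and progenitor list (6 genes) summed to 691 to 752, 373 to 391 and 520 to 629 FPKM in the same order, with KRT7 under 0.1 FPKM throughout. Stellate and fibroblast genes (4 of 6 listed) summed to 16.03 to 18.005, 22.4 to 24.4 and 13.5 to 16.4 FPKM, with COL1A1 and COL3A1 under 0.1, and endothelial genes stayed at or under 0.212. Blood markers (4 of 5 listed) were carried by LYZ, at 324 to 344, 567 to 615 and 473 to 625.4 FPKM. Ribosomal protein genes took 6.73 to 7.87% of summed FPKM in unexposed and 8.63 to 9.66% in exposed libraries. The part of these differences in the results was not tested. The labels name no batch, and exposure and any batch common to all exposed libraries cannot be told apart.

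Against the 6 unexposed libraries, each of the 5 exposures gave the same calls. FOXA2 and FOXA3 were higher, CEBPA, CEBPB, FOXA1 and GATA4 were lower, and PROX1 and ONECUT1 were not called. Differences are of log2(FPKM + 1), tested with limma, and a gene was called at a Benjamini-Hochberg adjusted p under 0.05. The 6 of 8 members called stand beside a background of 52.7% of all genes tested with glyphosate, 52.8% with AMPA, 47.6% with 2,4-D, 48.1% with glyphosate+2,4-D and 50.4% with AMPA+2,4-D. The 2 members higher stand beside 27.7, 28, 25, 25.4 and 26% of all genes called higher, and the 4 lower beside 25.1, 24.8, 22.6, 22.7 and 24.4% called lower, in the same order. For the same 6 members no exposed library overlapped the unexposed range, which held for 45.5, 44.4, 39.7, 40.4 and 39.3% of all genes in that order. Of all genes called, 51.7 to 53.1% were higher, 29.8 to 37.6% when columns were rescaled to TPM, and 33.4 to 37.9% with voom on recovered reads. The median difference over all genes was -0.14 to -0.08 on the TPM scale and -0.13 to -0.09 with voom, beside 0.00 to 0.01 on the FPKM scale. The same 6 unexposed libraries served all 5 comparisons, so these are not independent of each other. In bulk libraries less RNA of a gene per cell and fewer cells that express it cannot be told apart.

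**Figure D1:**
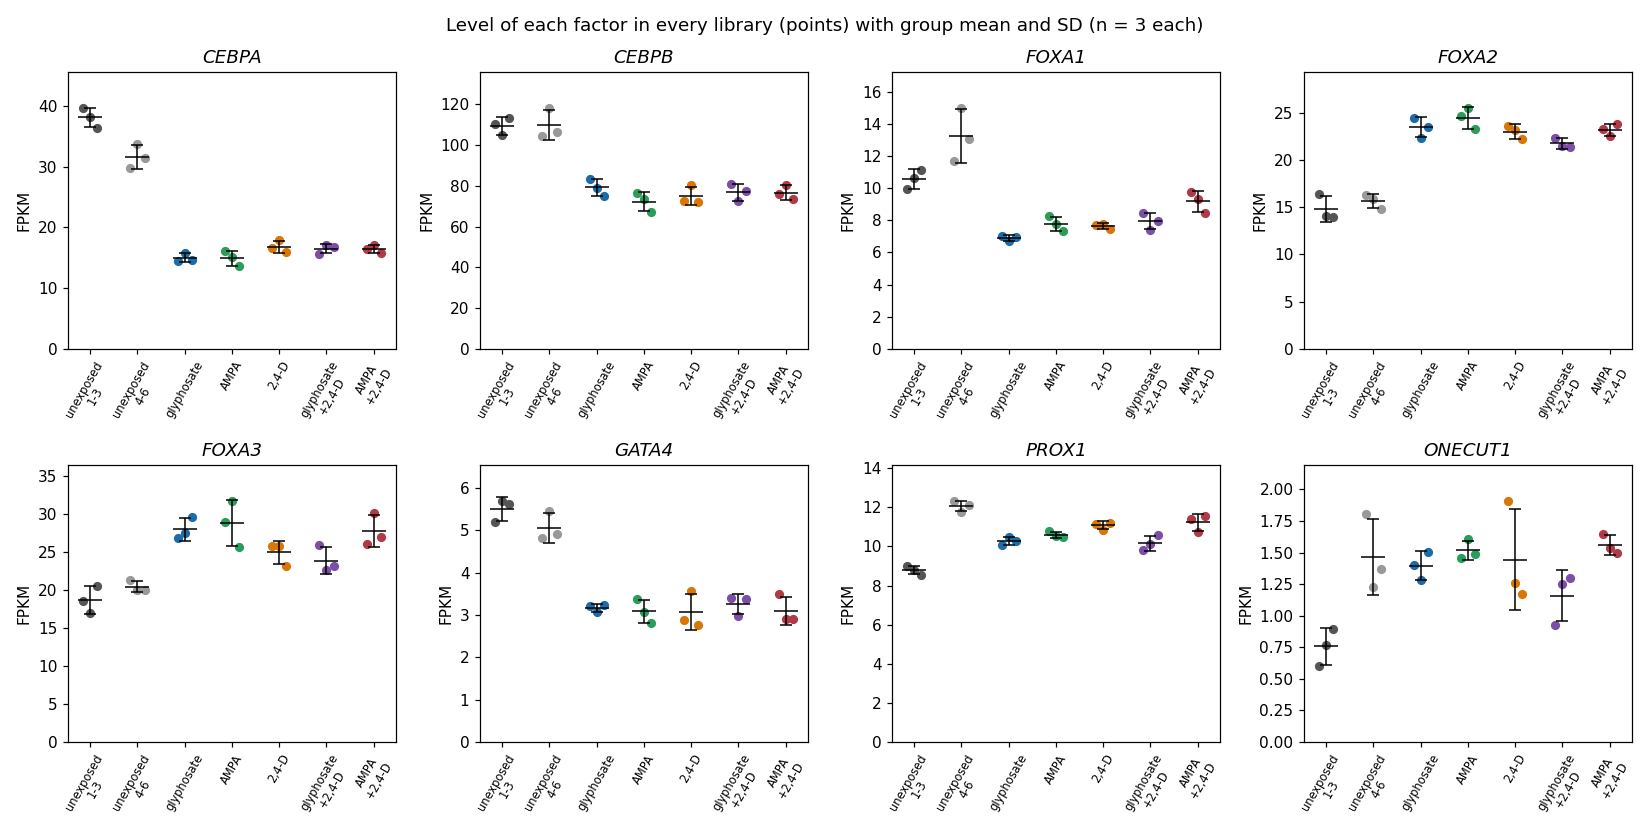
Level of each of the 8 factors in FPKM on the y axis, by group on the x axis, with 1 point per library and lines for the group mean and SD (n = 3). CEBPA, CEBPB, FOXA1 and GATA4 lie lower and FOXA2 and FOXA3 higher in all 15 exposed libraries than in any unexposed one, while PROX1 and ONECUT1 separate the unexposed sets from each other.

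CEBPA (ENSG00000245848, chr19:33299934-33302564, minus strand, a single exon) showed the largest change of the 8. Unexposed replicates 1 to 3 held 39.7, 38.2 and 36.4 FPKM and replicates 4 to 6 held 29.8, 33.7 and 31.5. CEBPA stood at 14.5, 15.8 and 14.6 FPKM with glyphosate, 16.1, 15.1 and 13.6 with AMPA, and 16.5, 17.8 and 15.97 with 2,4-D. The mixtures gave 15.6, 17.0 and 16.8 FPKM (glyphosate+2,4-D) and 16.5, 17.1 and 15.8 (AMPA+2,4-D). All exposed libraries lay within 13.6 to 17.8 FPKM, far below the lowest unexposed library. Unexposed cells averaged 34.9 ± 3.90 FPKM (SD, n = 6), 2.08 to 2.34 times the exposed means. The log2 difference was -1.16 with glyphosate, -1.17 with AMPA, -1.01 with 2,4-D and -1.03 with either mixture (SE 0.08, adjusted p between 1.3e-09 and 1.33e-08).

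CEBPB (ENSG00000172216, chr20:50190734-50192689, plus strand) was the most abundant of the 8 per length and fell less than its paralog. Its level was 110.2, 105 and 113 FPKM in unexposed replicates 1 to 3 and 105, 118 and 106 in replicates 4 to 6. With single compounds it was 83.5, 79.1 and 75.1 FPKM (glyphosate), 76.3, 73.3 and 67.3 (AMPA), and 72.6, 80.4 and 72.3 (2,4-D). With mixtures it was 80.9, 72.4 and 77.3 FPKM (glyphosate+2,4-D) and 76.0, 80.6 and 73.5 (AMPA+2,4-D). The unexposed sets were level with each other and every exposed library lay under both. Unexposed means exceeded exposed means 1.38 to 1.52 times, with log2 differences of -0.46, -0.59, -0.54, -0.51 and -0.51 for glyphosate, AMPA, 2,4-D and the 2 mixtures (SE 0.05, adjusted p at most 1.51e-06).

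The ratio of CEBPA to CEBPB within a library thus differed as well, given here as a description. It was 0.322 to 0.365 in unexposed replicates 1 to 3, 0.284 to 0.296 in replicates 4 to 6 and 0.173 to 0.235 over the 15 exposed libraries. The lowest group mean was that of glyphosate, 0.190 ± 0.014 (SD, n = 3), and the highest exposed mean that of 2,4-D, 0.224 ± 0.0037. The CEBPA share of the pair was lower in every exposed library than in any unexposed one.

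FOXA1 (ENSG00000129514, chr14:37589984-37596059, minus strand) fell while its paralogs rose. Unexposed replicates 1 to 3 gave 9.93, 10.6 and 11.2 FPKM and replicates 4 to 6 gave 11.7, 15.02 and 13.1. FOXA1 stood at 7.02, 6.70 and 6.97 FPKM with glyphosate, 8.25, 7.75 and 7.33 with AMPA, and 7.70, 7.77 and 7.47 with 2,4-D. The glyphosate+2,4-D libraries held 8.45, 7.43 and 7.95 FPKM and those of AMPA+2,4-D held 9.79, 9.32 and 8.45. The AMPA+2,4-D libraries reached closest to the unexposed ones, at 9.79 FPKM against 9.93 in the lowest unexposed library. Differences were -0.70, -0.55, -0.57, -0.52 and -0.33 on the log2 scale in the order glyphosate, AMPA, 2,4-D, glyphosate+2,4-D, AMPA+2,4-D (SE 0.09, adjusted p between 2.94e-06 and 0.0039), or 1.30 to 1.73 times lower means.

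FOXA2 (ENSG00000125798, chr20:22581005-22585455, minus strand) rose. It stood at 16.4, 14.1 and 13.996 FPKM in unexposed replicates 1 to 3 and 16.3, 15.9 and 14.8 in replicates 4 to 6. The values were 24.5, 22.4 and 23.6 FPKM with glyphosate, 24.7, 25.5 and 23.3 with AMPA, and 23.7, 23.2 and 22.2 with 2,4-D. They were 22.4, 21.5 and 21.4 FPKM with glyphosate+2,4-D and 23.3, 22.6 and 23.9 with AMPA+2,4-D. The exposed libraries kept to a narrow band of 21.4 to 25.5 FPKM. Exposed means were 1.43 to 1.61 times the unexposed mean, and log2 differences were 0.59, 0.65, 0.57, 0.49 and 0.58 in the order above (SE 0.05, adjusted p at most 4.55e-07).

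FOXA3 (ENSG00000170608, chr19:45863989-45873797, plus strand), which binds the same forkhead motif, rose too and varied more among libraries. Unexposed libraries gave 18.6, 16.9 and 20.5 FPKM (replicates 1 to 3) and 21.3, 20.04 and 19.96 (replicates 4 to 6). Its level was 26.8, 27.5 and 29.7 FPKM with glyphosate, 29.01, 31.7 and 25.7 with AMPA, and 25.8, 25.8 and 23.2 with 2,4-D. It was 25.9, 22.6 and 23.1 FPKM with glyphosate+2,4-D and 26.1, 30.1 and 27.0 with AMPA+2,4-D. The lowest exposed library, one of glyphosate+2,4-D, lay at 22.6 FPKM and the highest unexposed one at 21.3. Log2 differences were 0.50, 0.53, 0.34, 0.28 and 0.48 (SE 0.07, adjusted p between 8.43e-06 and 0.00452), and means were 1.22 to 1.47 times higher. For glyphosate+2,4-D the call was lost on the TPM scale (0.15, adjusted p = 0.151) and with voom on recovered reads (0.17, adjusted p = 0.0881). The median over all genes for that mixture was -0.12 and -0.11 there.

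The make-up of the FOXA family shifted while its summed level went up on the FPKM scale. FOXA1, FOXA2 and FOXA3 summed to 41.7 to 45.7 FPKM in unexposed replicates 1 to 3, 47.9 to 51.0 in replicates 4 to 6 and 51.6 to 65.0 in exposed libraries. FOXA1 made up 22.1 to 29.5% of that sum in unexposed cells and 11.6 to 16.5% in exposed ones, with no overlap. FOXA2 went from 30.6 to 36.5% in unexposed cells to 36.4 to 42.0%, and FOXA3 from 39.3 to 44.9% to 43.9 to 49.3%, with ranges that met. The FOXA2 to FOXA1 ratio was 1.254 to 1.65 in replicates 1 to 3, 1.06 to 1.39 in replicates 4 to 6 and 2.38 to 3.49 in exposed libraries, and the FOXA3 to FOXA1 ratio was 1.59 to 1.87, 1.33 to 1.83 and 2.67 to 4.26. Ratios are within a library, and thus the same on any scale that multiplies a column by a constant. The summed level is not, and it was not compared on the TPM scale. All genes together summed to 276823 to 294902 FPKM in unexposed and 294984 to 327953 in exposed libraries.

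**Figure D2:**
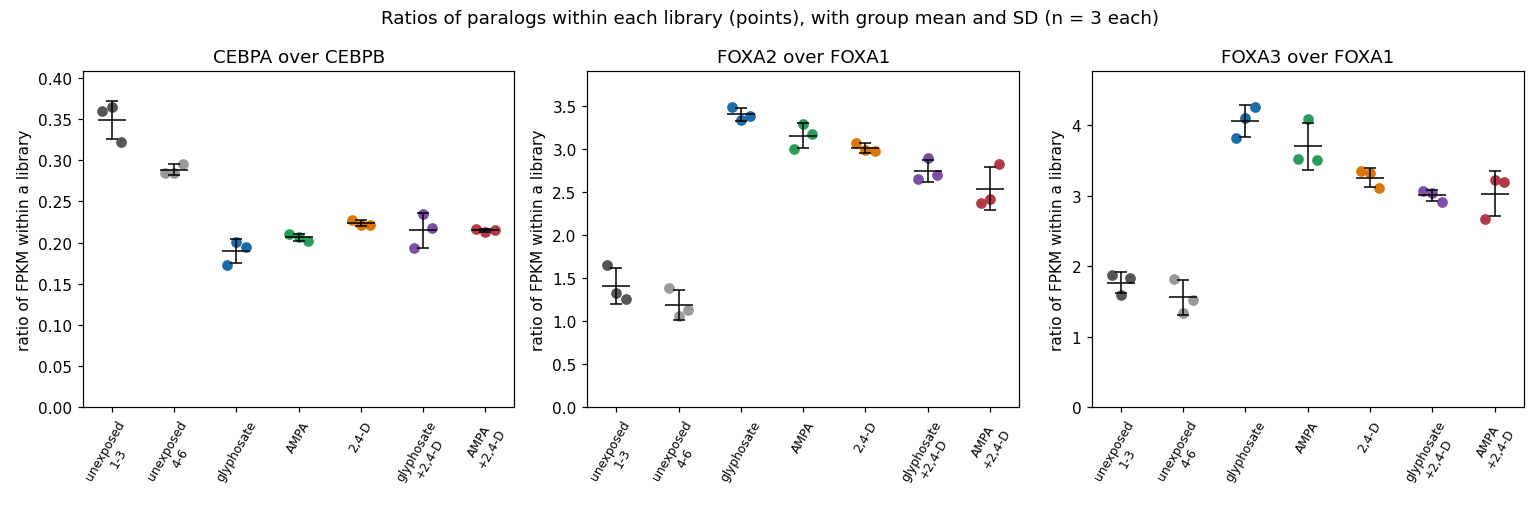
Ratio of FPKM within each library for CEBPA over CEBPB, FOXA2 over FOXA1 and FOXA3 over FOXA1 (y axis, linear from 0) by group (x axis), with 1 point per library and the group mean and SD (n = 3). The CEBPA to CEBPB ratio is at or under 0.235 in exposed and at or above 0.284 in unexposed libraries, and both FOXA ratios are higher in all exposed libraries.

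GATA4 (ENSG00000136574, chr8:11676959-11760002, plus strand) was low in unexposed cells and lower in exposed ones. Unexposed replicates 1 to 3 had 5.19, 5.69 and 5.63 FPKM and replicates 4 to 6 had 4.82, 5.46 and 4.91. With glyphosate it was 3.22, 3.07 and 3.24 FPKM, with AMPA 3.37, 3.08 and 2.81, and with 2,4-D 2.88, 3.56 and 2.77. With glyphosate+2,4-D it was 3.40, 2.98 and 3.39 FPKM, and with AMPA+2,4-D 3.49, 2.90 and 2.91. No exposed library exceeded 3.56 FPKM and no unexposed one fell under 4.82. The log2 differences lay between -0.63 and -0.56 (SE 0.07, adjusted p at most 3.41e-06), which the added 1 makes smaller for a gene this low. The FPKM means themselves were 1.62 to 1.72 times lower.

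PROX1 (ENSG00000117707, chr1:213983181-214041502, plus strand) lay between the unexposed sets. It measured 8.99, 8.79 and 8.56 FPKM in unexposed replicates 1 to 3 but 12.3, 11.8 and 12.1 in replicates 4 to 6. Exposed libraries gave 10.1, 10.5 and 10.3 FPKM (glyphosate), 10.8, 10.5 and 10.5 (AMPA), and 11.2, 10.9 and 11.2 (2,4-D). The mixtures gave 9.81, 10.1 and 10.6 FPKM (glyphosate+2,4-D) and 11.4, 10.8 and 11.6 (AMPA+2,4-D). Every exposed library thus stood above one set and below the other. Against all 6 unexposed libraries the differences were -0.02 to 0.11 on the log2 scale (SE 0.09, adjusted p between 0.314 and 0.97). The spread behind this SE includes the difference between the sets.

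ONECUT1 (ENSG00000169856, chr15:52756989-52791078, minus strand) was the lowest of the 8, at or above 1 FPKM in 17 of 21 libraries. Its values were 0.605, 0.765 and 0.898 FPKM in unexposed replicates 1 to 3 and 1.81, 1.23 and 1.37 in replicates 4 to 6. Single compounds gave 1.40, 1.28 and 1.51 FPKM (glyphosate), 1.46, 1.60 and 1.49 (AMPA), and 1.91, 1.26 and 1.17 (2,4-D). The mixtures gave 0.927, 1.251 and 1.30 FPKM (glyphosate+2,4-D) and 1.65, 1.54 and 1.498 (AMPA+2,4-D). The exposed libraries overlapped the second unexposed set and lay above the first. Differences from all 6 unexposed libraries were 0.05 to 0.30 (SE 0.14) and missed the threshold (adjusted p between 0.0736 and 0.775). Without unexposed replicate 4, the highest of the 6, the differences for glyphosate, AMPA, 2,4-D and also AMPA+2,4-D became 0.30, 0.37, 0.31 and 0.39 and were called (adjusted p = 0.0451, 0.0151, 0.0379 and 0.0111).

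The unexposed sets were compared directly, since they bear the same label apart from the replicate number. Of the 8 members 4 were called between replicates 4 to 6 and 1 to 3, beside 31.6% of all genes tested (15.7% higher, 15.9% lower). PROX1 was higher in replicates 4 to 6 by 0.42 (SE 0.03, adjusted p = 6.45e-08), ONECUT1 by 0.49 (SE 0.11, adjusted p = 0.00244) and FOXA1 by 0.30 (SE 0.07, adjusted p = 0.00379), and CEBPA was lower by -0.26 (SE 0.06, adjusted p = 0.00292). FOXA3 at 0.13, FOXA2 at 0.08, GATA4 at -0.10 and CEBPB at 0.00 were not called. FOXA2 passed without unexposed replicate 1 (0.15, adjusted p = 0.032). For the same 4 members the libraries of the sets did not overlap, as for 45.5% of all genes.

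Each exposure was then set against either set alone. Against replicates 1 to 3 all 8 members were called in each exposure, 4 higher (FOXA2, FOXA3, PROX1, ONECUT1) and 4 lower, beside 57.5, 58, 54.1, 54.8 and 55.3% of all genes for glyphosate, AMPA, 2,4-D, and their mixtures in the order above (29.8, 30.3, 27.9, 28.2 and 28.6% higher, 27.7, 27.7, 26.3, 26.7 and 26.7% lower). Against replicates 4 to 6 it was 7, with FOXA2 and FOXA3 higher, PROX1 now among 5 lower, and ONECUT1 not called, beside 51.1, 51.3, 46.4, 46.7 and 50.3% (27.1, 27.6, 24.7, 25 and 26.3% higher, 23.9, 23.7, 21.7, 21.8 and 24% lower). PROX1 differed by 0.19 to 0.32 from the first set and by -0.23 to -0.095 from the second (SE 0.03), so its direction depended on the set. Against the first set PROX1 was not called on the TPM scale with AMPA (0.080, adjusted p = 0.0813) and glyphosate+2,4-D (0.052, adjusted p = 0.262), nor with voom with glyphosate (0.099, adjusted p = 0.0523) and glyphosate+2,4-D (0.070, adjusted p = 0.192). ONECUT1 differed by 0.30 to 0.55 from the first and by -0.19 to 0.06 from the second (SE 0.11). FOXA1 differed by -0.55 to -0.18 and by -0.85 to -0.48 (SE 0.07), and CEBPA by -1.30 to -1.14 and by -1.04 to -0.88 (SE 0.06). CEBPB (-0.59 to -0.46 against either), GATA4 (-0.68 to -0.61 and -0.58 to -0.51), FOXA2 (0.53 to 0.69 and 0.45 to 0.61) and FOXA3 (0.34 to 0.60 and 0.21 to 0.47) differed in size only.

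Other calls near the threshold rested on single libraries. FOXA1 with AMPA+2,4-D against replicates 1 to 3 (-0.18, adjusted p = 0.0364) was lost without unexposed replicate 2 or 3 or without AMPA+2,4-D replicate 2 or 3 (adjusted p = 0.0784, 0.134, 0.0536 and 0.168). ONECUT1 with glyphosate+2,4-D against replicates 1 to 3 (0.30, adjusted p = 0.0301) was lost without unexposed replicate 1 or 2 or without glyphosate+2,4-D replicate 2 or 3 (adjusted p = 0.121, 0.0577, 0.0917 and 0.106). PROX1 with AMPA+2,4-D against replicates 4 to 6 (-0.095, adjusted p = 0.0288) was lost without unexposed replicate 4 or 6 or AMPA+2,4-D replicate 2 (adjusted p = 0.0989, 0.0708 and 0.139). FOXA3 with glyphosate+2,4-D against replicates 4 to 6 (0.21, adjusted p = 0.0357) was lost without unexposed replicate 5 or 6 or glyphosate+2,4-D replicate 1 (adjusted p = 0.0927, 0.0954 and 0.161).

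**Figure D3:**
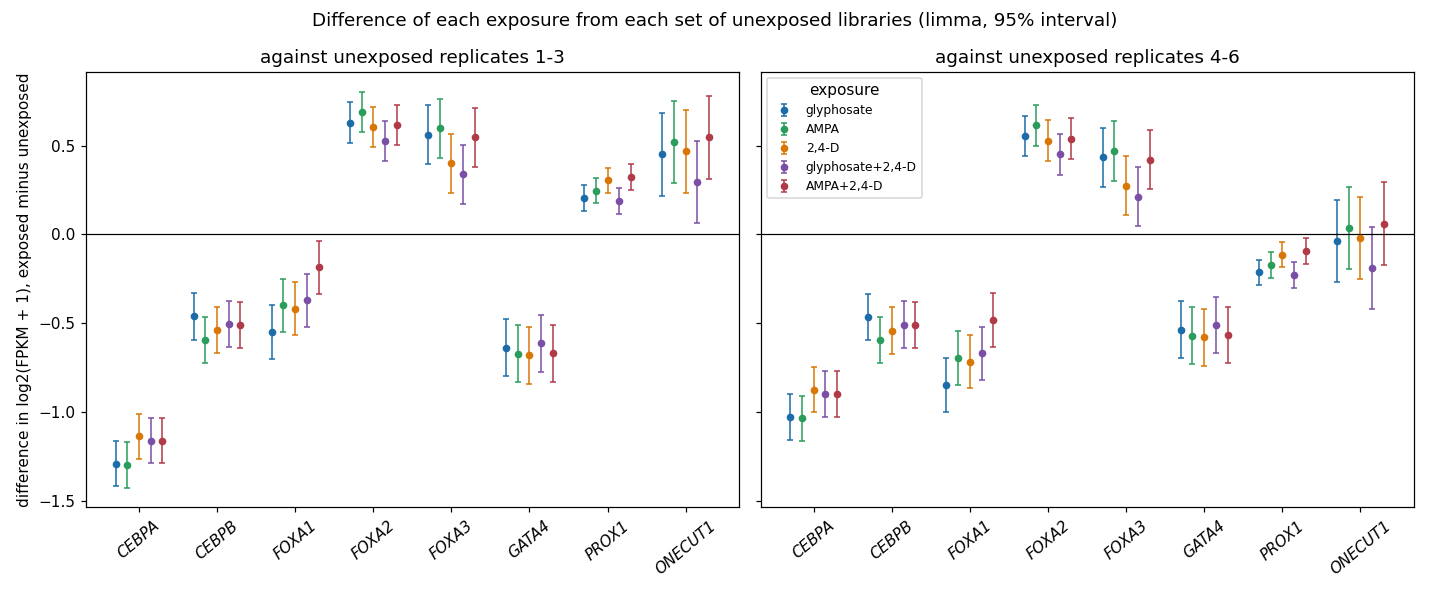
Difference of each exposure from unexposed replicates 1 to 3 (left) and 4 to 6 (right), exposed minus unexposed in log2(FPKM + 1) on the y axis, for each factor on the x axis, with limma 95% intervals. CEBPA, CEBPB, FOXA1 and GATA4 lie under 0 and FOXA2 and FOXA3 above 0 in both panels, while PROX1 lies above 0 on the left (0.19 to 0.32) and under 0 on the right (-0.23 to -0.095).

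The order of the 8 levels per length changed with exposure. In both unexposed sets it ran CEBPB, CEBPA, FOXA3, FOXA2, FOXA1, PROX1, GATA4, ONECUT1. Neighbours in this order did not overlap in replicates 1 to 3, while in replicates 4 to 6 FOXA2 overlapped FOXA1 and FOXA1 overlapped PROX1. In all 5 exposures it ran CEBPB, FOXA3, FOXA2, CEBPA, PROX1, FOXA1, GATA4, ONECUT1. There only FOXA3 and FOXA2 with 2,4-D overlapped. CEBPA moved from the second place to the fourth, behind FOXA3 and FOXA2, and FOXA1 fell behind PROX1. The FOXA2 to CEBPA ratio, 0.369 to 0.547 in unexposed libraries, was 1.26 to 1.71 in exposed ones.

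Between exposures no member was called in the fit of group means, which has no term for the replicate number. In 8 comparisons (each mixture against each of its components, the 3 single compounds among themselves, and the mixtures against each other) 0 of 64 pairs of member and comparison were called by limma. At an unadjusted p under 0.05 there were 5, and voom on recovered reads called 0. The background was 0% of genes called in 6 of the comparisons, 2.71% for AMPA+2,4-D against AMPA and 0.261% between the mixtures. ONECUT1 had the largest log2 difference of the 8, 0.25 (95% interval 0.33 to either side, lowest adjusted p 0.472). FOXA1 reached 0.23 (0.21 to either side, lowest adjusted p 0.263), and FOXA3 ran from -0.22 to 0.21 (0.18 to either side, lowest adjusted p 0.234). For CEBPA differences lay between -0.02 and 0.16 with intervals from -0.21 to 0.34 in all, for CEBPB between -0.13 and 0.08 with intervals from -0.26 to 0.22, for FOXA2 between -0.10 and 0.09 with intervals from -0.22 to 0.21, and for GATA4 between -0.06 and 0.07 with intervals from -0.22 to 0.23. For PROX1 the intervals spanned -0.34 to 0.36, and for ONECUT1 -0.50 to 0.58, the widest of the 8.

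Interaction terms ask whether a mixture differs from unexposed cells by the sum of what its components do alone. They were called for the 6 members that moved, in both mixtures, with a sign opposite to that of the exposure (4 higher and 2 lower), beside 33.6% of all genes for glyphosate and 2,4-D (15.6% higher, 17.9% lower) and 36.7% for AMPA and 2,4-D (16.9% higher, 19.8% lower). CEBPA, for example, fell by 1.16 with glyphosate, by 1.01 with 2,4-D and by 1.03 with both, which gave a term of 1.13 (SE 0.12, adjusted p = 1.3e-06). Each term holds the unexposed mean with a positive sign, so it shares these libraries with all comparisons above.

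Genes that lie on or beside the members were examined because the strand of the counting is not stated, and reads of overlapping genes on opposite strands then cannot be told apart. CEBPA-DT, a divergent antisense transcript that starts beside CEBPA without overlapping it, was at 2.94 to 4.52 FPKM in unexposed and 0.702 to 1.46 in exposed libraries. It was lower in all 5 exposures, by -1.23 to -0.94 (SE 0.09, adjusted p at most 3.02e-07). AC008738.3 and AC008738.5 lie antisense within CEBPA, over 1235 and 662 of its bases, and were called lower in all 5 (-1.11 to -0.49 and -1.07 to -0.81). AC008738.3 had at most 39 reads per library, and its exposed range of 0.337 to 1.86 FPKM overlapped the unexposed 1.57 to 3.16. Against replicates 4 to 6 alone AC008738.3 was not called with glyphosate, AMPA or 2,4-D (-0.41, -0.54 and -0.57). CEBPB-AS1 overlaps CEBPB by 765 bases, reached at most 2.16 FPKM, and was called in 3 of 5 (-0.37 to -0.05). Against replicates 1 to 3 alone CEBPB-AS1 was not called in any exposure (-0.26 to 0.06). FOXA1 shares 213 bases with TTC6, which stayed at or under 0.793 FPKM, and PROX1 overlaps PROX1-AS1, AC011700.1 and AL606537.1, none above 0.792 FPKM. SYMPK, within 5 kb of FOXA3, kept to 7.97 to 9.99 FPKM and was called in 1 exposure.

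Over the 21 libraries, described without a test because the libraries share groups, the members fell into patterns. CEBPA, CEBPB and GATA4 went together with Pearson correlations of 0.95 to 0.96 in log2(FPKM + 1). FOXA2 and FOXA3 correlated at 0.90, FOXA2 and CEBPA at -0.96, and FOXA1 and FOXA2 at -0.81. PROX1 and ONECUT1, which followed the unexposed sets, correlated at 0.75. The protein-coding genes most like each member were KLHDC7B, WARS and MOCOS for CEBPA (0.99 each), CENPB, RBM15B and CTBP1 for CEBPB (0.98, 0.97, 0.97) and SLC26A1, SLC1A4 and RBM15B for GATA4 (0.98, 0.98, 0.97). WARS, the cytosolic tryptophanyl-tRNA synthetase, went from group means of 80.6 and 64.2 FPKM in the unexposed sets to 34.1 to 42.4 in exposed libraries. SPRY4, an inhibitor of receptor tyrosine kinase signalling, UHRF2 and the clock repressor NR1D1 were most like FOXA2 (0.98 each). SPRY4 had means of 10.7 and 10.97 FPKM in the unexposed sets and 22.1 to 27.1 in exposed libraries. AUP1, ARHGDIA and CAMSAP3 were most like FOXA3 (0.95, 0.95, 0.93), and SLC17A2, SMLR1 and the metal transporter SLC39A14 most like FOXA1 (0.95 each). For PROX1 they were KANK1, MAP4K4 and SORT1 (0.92, 0.91, 0.91), and for ONECUT1, with its weaker likeness, WDFY2, TRAM2 and PLCB1 (0.87, 0.86, 0.84).

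Other liver factors, a list of 25 genes of which 20 were tested, went down more often than up. Called higher and lower were 4 and 10 with glyphosate and with AMPA, 2 and 9 with 2,4-D, and 3 and 8 with either mixture. These were 55 to 70% of the 20, beside 47.6 to 52.8% of all genes tested (25 to 28% higher, 22.6 to 25.1% lower). The share was 55% with 2,4-D alone and with either mixture, near the background of 47.6 to 50.4% there. The median difference was -0.14 to -0.07 beside 0.00 to 0.01 over all genes tested. HNF4A, the nuclear receptor at the centre of the hepatocyte network, stood at 43.1 to 45.6 FPKM in all 6 unexposed libraries and at 23.9 to 28.4 in exposed ones, with differences of -0.84 to -0.69 (SE 0.04, adjusted p at most 3.07e-10). Its unexposed sets differed by 0.05 (adjusted p = 0.385). HHEX, a homeobox factor of the liver bud, went the other way, from 15.2 to 16.9 FPKM in replicates 1 to 3 and 21.7 to 23.2 in replicates 4 to 6 to 25.3 to 31.9 in exposed libraries (0.49 to 0.69, SE 0.10).

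Chosen after their values were seen, other factors called in all 5 exposures were TBX3 (0.31 to 0.47), and, lower, KLF15 (-1.44 to -1.12), the bile acid receptor NR1H4 (-1.02 to -0.59), the fatty acid receptor PPARA (-0.79 to -0.63), NR1I2, NR0B2 and RXRA. KLF15 was also the lowest of these, at 2.44 to 4.00 FPKM in unexposed and 0.285 to 1.21 in exposed libraries. Of 11 relatives of the members 5 were tested, and 60% of these were called with glyphosate and with AMPA, 20% with 2,4-D, 40% with glyphosate+2,4-D and 0% with the other mixture, beside 47.6 to 52.8% of all genes. CEBPD was called higher in 3 exposures (-0.03 to 0.41), CEBPG, the most abundant relative at 29.2 to 37.8 FPKM, lower in 3 (-0.17 to 0.01) and ONECUT2 lower in 2 (-0.14 to 0.08). GATA2, chosen after its values were seen, was called higher in 1 (0.09 to 0.26). GATA6, at 0.815 to 1.66 FPKM, was called in 0 (-0.15 to -0.05), but it was 0.44 higher in unexposed replicates 4 to 6 than in 1 to 3. Against replicates 4 to 6 it was called lower with glyphosate, AMPA, 2,4-D and glyphosate+2,4-D (-0.30 to -0.27). With AMPA+2,4-D, which had the lowest exposed mean, GATA6 stood at 0.935 to 1.13 FPKM, under the 1.55 to 1.66 of replicates 4 to 6. Against replicates 1 to 3 GATA6 was not called in any exposure (0.07 to 0.17). CEBPD and CEBPG were also called between the unexposed sets, by 0.33 and -0.14 in replicates 4 to 6. Against replicates 4 to 6 CEBPD was not called with glyphosate (0.17) or AMPA (0.16). With glyphosate+2,4-D it stood at 6.66 to 7.63 FPKM, above the 5.48 to 6.21 of those replicates. CEBPG was not called against replicates 4 to 6 with glyphosate, AMPA or 2,4-D (-0.095, -0.071 and -0.066). NR5A2 (at most 0.741 FPKM) was too low to be tested.

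Among 10 regulators and partners of the members (8 tested), 2 were called higher in each exposure and 4 or 5 lower. The 2 of 8 higher (25%) is near the 25 to 28% of all genes called higher, and the lower calls stand beside 22.6 to 25.1%. TRIB1, which targets C/EBP alpha for degradation with the ubiquitin ligase COP1, rose from 17.0 to 19.5 FPKM in unexposed to 26.3 to 32.0 in exposed libraries (0.60 to 0.75, SE 0.05, adjusted p at most 2.31e-08). DDIT3, also called CHOP, a C/EBP relative that forms heterodimers and responds to stress of the endoplasmic reticulum, fell from 130 to 139.5 FPKM in replicates 1 to 3 and 104 to 110.2 in replicates 4 to 6 to 61.5 to 74.4 (-0.92 to -0.79, SE 0.09). COP1 itself was not called (-0.13 to 0.05). Chosen after their values were seen, HDAC3 was higher (0.22 to 0.41), and NCOR1, a corepressor that works with it, and ZFPM1, a GATA cofactor, were lower in all 5 exposures (-0.38 to -0.29 and -0.47 to -0.32).

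Genes for hepatocyte products, many of them known to be bound by these factors, were called higher more often than lower. Of 28 tested, called higher and lower were 14 and 6 with glyphosate, 14 and 4 with AMPA, 12 and 6 with 2,4-D, 14 and 3 with glyphosate+2,4-D, and 10 and 6 with AMPA+2,4-D. Calls made up 71.4, 64.3, 64.3, 60.7 and 57.1% of the list in that order, beside 52.7, 52.8, 47.6, 48.1 and 50.4% of all genes, so the share with AMPA+2,4-D was near the background. The median difference was 0.20 to 0.24. ALB, which encodes albumin, differed by 0.38 to 0.50, TTR (transthyretin) by 0.74 to 0.92 and APOA1 by 0.57 to 0.84. SERPINA1 (alpha-1 antitrypsin) differed by 0.36 to 0.59 and PCK1, a gluconeogenic enzyme, by 0.37 to 0.76. Each of these was called in all 5. The fetal protein gene AFP, a marker outside this list, differed by 0.59 to 0.71 and was also called in all 5. FGB, for fibrinogen beta, was not called (0.04 to 0.21), but it was 0.64 higher in unexposed replicates 4 to 6 than in 1 to 3. Against replicates 1 to 3 FGB was called higher in all 5 exposures (0.36 to 0.53). Against replicates 4 to 6 it was called lower with glyphosate, AMPA and 2,4-D (-0.28, -0.26 and -0.22) but not with glyphosate+2,4-D (-0.11). With AMPA+2,4-D, FGB stood at 15.2 to 18.3 FPKM, under the 19.2 to 20.7 of replicates 4 to 6. G6PC (at most 0.865 FPKM) and CYP7A1 (at most 0.132 FPKM) were too low to be tested. F7, for a clotting factor, and APOB, chosen after their values were seen, were lower in all 5 (-1.01 to -0.80 and -0.56 to -0.26).

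ALB, TTR and APOA1 differed between the unexposed sets as well, and the counts of the product list moved with the set used. AFP, PCK1 and SERPINA1 were also higher in replicates 4 to 6, by 0.89, 0.41 and 0.27 (adjusted p at most 0.00283). Against replicates 4 to 6 AFP differed by 0.21 with glyphosate, 0.23 with AMPA, 0.14 with 2,4-D and 0.27 with glyphosate+2,4-D. With AMPA+2,4-D, AFP stood at 2519 to 2696 FPKM, above the 2157 to 2430 of replicates 4 to 6. ALB had means of 2460 ± 185 FPKM in replicates 1 to 3, 3700 ± 347 in replicates 4 to 6 (SD, n = 3 each) and 3693 to 4390 in single exposed libraries. ALB was higher in replicates 4 to 6 by 0.59 (SE 0.07, adjusted p = 3.05e-06). Against replicates 4 to 6 alone it differed by 0.08 to 0.21 and was called with glyphosate+2,4-D (adjusted p = 0.0151) but not with the others. TTR, at 0.99 between the sets, and APOA1, at 0.50, were still called in all 5 exposures against replicates 4 to 6 (0.25 to 0.42 and 0.32 to 0.59). Without replicates 1 to 3 the products called higher and lower were 10 and 10 with glyphosate, 11 and 9 with AMPA, 8 and 10 with 2,4-D, 11 and 7 with glyphosate+2,4-D and 7 and 12 with AMPA+2,4-D. Without replicates 4 to 6 they were 19 higher in each exposure and 3 to 5 lower. The excess of higher over lower calls in this list thus depended on which unexposed libraries were used, while HNF4A, whose sets were level, was lower against either (-0.82 to -0.67 and -0.87 to -0.72).

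**Figure D4:**
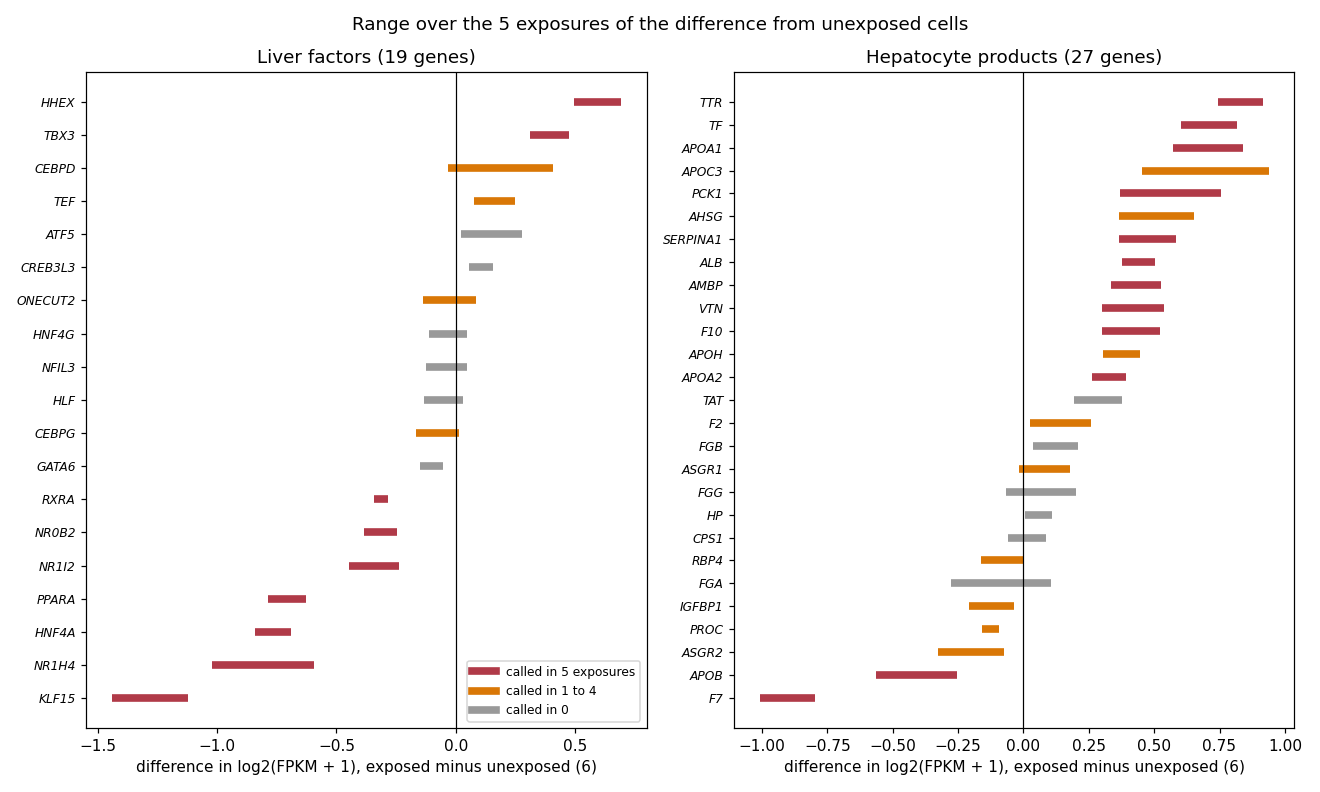
Range over the 5 exposures of the difference from the 6 unexposed libraries, in log2(FPKM + 1) on the x axis, for 19 of 20 tested genes (y axis) of the liver factor list (left) and 27 of 28 of the hepatocyte product list (right), coloured by the number of exposures in which limma called it. HNF4A and 6 other factors drawn are called lower in all 5, and 10 products are called higher in all 5.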

How the data were processed

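Total RNA of C3A cells was isolated with QIAzol and RNeasy columns and made into libraries with a kit of the SMARTer line, per the labels' protocols. The strand is not given there. Reads were aligned to GRCh38 with HISAT2 2.0.5 and counted with featureCounts 1.5.0-p3, per the submitters' processing notes. The authors deposited FPKM in a separate table for each of 6 groups, and how these were scaled or filtered is not given in the sources used here. FPKM times gene length was a whole number of steps to within 0.1 of a read for 100% of values, which gave 15.2 to 24.35 M reads per library. Of 28808 genes listed, 23375 were in all 6 tables. Tested were the 13405 genes that all tables list and that reached 1 FPKM in 3 or more of the 21 libraries.

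Tests used R 4.3.3, its package limma 3.58.1 and, to read tables, data.table version 1.17.8. They were fitted on log2(FPKM + 1), so log2 differences are of FPKM + 1 and are understated for low genes, while ratios of means are of plain FPKM. The fit had 6 group means over all libraries, or 7 with unexposed replicates 1 to 3 and 4 to 6 apart, moderated variances with a trend, and Benjamini-Hochberg adjustment over all genes tested within each comparison (called under 0.05). Descriptions used Python 3.11.15 with pandas 2.3.3 and numpy 2.4.6. The procedure was tested on simulated data. The groups of 3 libraries limit the precision. The members, the gene lists and the split of the unexposed libraries were chosen with earlier results of these data known. Named genes were the 8 members, a fixed set from the lists, the 3 protein-coding genes most correlated with each member and genes within 5 kb. Some genes of the lists are counted but not reported here by name. Alternatives were each library or either unexposed set left out, the replicate number as a block, voom on recovered reads, rescaling to TPM or by median of ratios, a pseudocount of 0.1, all genes without a filter, and a fit of only the groups compared.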

Additional observations from a re-analysis of the deposited data

Results flagged for a closer look

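The interaction terms of both mixtures were singled out for 6 members, because the effect of 2,4-D given with a second compound differed, by a test of that difference with limma, from its effect alone. For glyphosate and 2,4-D the terms, in log2(FPKM + 1), were 1.13 for CEBPA, 0.75 for FOXA1, 0.66 for GATA4, 0.50 for CEBPB, -0.56 for FOXA3 and -0.67 for FOXA2 (SE 0.08 to 0.13, adjusted p at most 0.000921). For AMPA and 2,4-D they were 1.14 for CEBPA, 0.78 for FOXA1, 0.63 for GATA4 and 0.63 for CEBPB, -0.39 for FOXA3 and -0.64 for FOXA2 (adjusted p at most 0.0114). FOXA2, for instance, was 0.59 above unexposed cells with glyphosate, 0.57 with 2,4-D and 0.49 with both, while FOXA3 was 0.50 above with glyphosate, 0.34 with 2,4-D and 0.28 with both, and FOXA1 differed by -0.55 with AMPA, -0.57 with 2,4-D and -0.33 with both. Called terms made up 33.6% of all genes tested for glyphosate and 2,4-D and 36.7% for AMPA and 2,4-D. The FOXA3 term for AMPA and 2,4-D was not called on the TPM scale (-0.25, adjusted p = 0.146) or with voom on recovered reads (-0.27, adjusted p = 0.0751). All terms rest on the same 6 unexposed libraries, and a difference shared by all exposed libraries enters each term once with the opposite sign, whatever its source. No unexposed library of any member stood apart by Dixon's criterion, and groups of 3 were not examined for this.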

How the results depend on the processing

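For the 6 members called against the 6 unexposed libraries, 30 other settings gave 900 values. Of these 898 kept their call, 2 lost it (FOXA3 with glyphosate+2,4-D on the TPM scale, 0.15, and with voom, 0.17) and 0 reversed. In the text that follows, GD stands for glyphosate+2,4-D and AD for AMPA+2,4-D. Replicate numbers did not pair samples (deviations of same-numbered libraries correlated at -0.12 to 0.09 over 45 pairs), and since numbers 4 to 6 occur in unexposed cells only, the replicate block in effect uses replicates 1 to 3. With it 4 members were higher in each of the 5 exposures, 1 in AD against AMPA (FOXA1, 0.21, adjusted p = 0.0411), and 4 were lower in both interactions, and PROX1 reversed to 0.20 with glyphosate and 0.19 with GD. Without unexposed replicates 4-6 together 4 members were again higher in all 5, PROX1 reversed to 0.20 and 0.19, the liver factors called higher became 7 (AMPA) and 6 (2,4-D, GD, AD), and the products called higher became 19 (2,4-D, AD). Without replicates 1-3 together PROX1 reversed to -0.17 (AMPA), -0.11 (2,4-D) and -0.095 (AD), and the products called lower became 10 (glyphosate), 9 (AMPA), 10 (2,4-D), 7 (GD) and 12 (AD). On the TPM scale 1 member was higher for GD against all unexposed libraries, against replicates 1-3 and against 4-6, and for 2,4-D against 4-6, and 1 was lower in the interaction of AMPA and 2,4-D. There the liver factors called higher became 2 (glyphosate, AMPA) and the products called lower 8 (AMPA) and 7 (GD). With voom members higher became 1 for GD against all unexposed libraries, 2 against 1-3 and 1 against 4-6, with 1 lower in the interaction of AMPA and 2,4-D. With no filter 1 was higher for GD against 4-6, and with single libraries left out that count ran from 1 to 2. Apart from these, counts stayed within 1.5 times. The cause of these changes was not tested. ONECUT1, at 48 to 129 reads per library, is where depth limits most.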
